A study of Homo sapiens with 15 samples.

Results

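Collagen chain genes were followed across renal epithelial cells and fibroblasts grown alone or together on a recombinant spider silk membrane and on a reference membrane. The members were all rows of the expression table whose symbol names a collagen alpha chain (COL, a type number, A and a chain number), chosen by name and not by value, and they came to 32 of 15790 genes. By class, 8 were fibrillar chains, 6 were type IV chains of basement membranes and 18 belonged to other types. The epithelial cells were RPTEC/TERT1, an immortalized human renal proximal tubular line, and the fibroblasts were fHDF/TERT166, an immortalized human dermal line. RPTEC/TERT1 were grown alone on the silk membrane, labelled LN/FN-silk (silk monocultures), or on the membrane labelled LN/PC (LN/PC monocultures), and with fHDF/TERT166 added on each (silk co-cultures and LN/PC co-cultures). The fifth group was fHDF/TERT166, called fibroblast monocultures after the sample titles. The extraction protocol calls these cells basolateral and has them scraped off the well bottom, and whether they had shared wells with epithelial cells is not stated there, which bears on each level set against fibroblasts. Each group held 3 libraries, 15 in all, and several membranes were pooled per sample. Cultures ran for 14 days from 140000 epithelial cells and, where added, 14000 fibroblasts per cm2.

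Collagens are built from 3 alpha chains wound into a helix. Fibrillar collagens (types I, III, V, XI and XXVII here) form the fibres of connective tissue and are made in bulk by fibroblasts. Type IV collagen forms the sheet-like network of basement membranes, on which kidney tubule cells rest. It occurs as a common network of COL4A1 and COL4A2 chains and as a network with COL4A3, COL4A4 and COL4A5, which is best known from the kidney glomerulus. The remaining types bind to fibrils, anchor epithelia, form beaded filaments or short-chain networks, or span the cell membrane.

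The 6 type IV genes lie in the genome as head-to-head pairs, with starts 127 bases apart for COL4A1 and COL4A2, 419 bases for COL4A3 and COL4A4 and 380 bases for COL4A5 and COL4A6. The stretch between the starts of COL4A1 and COL4A2 is shown because these 2 chains led the collagens of the epithelial cells per length, the stretch upstream of COL4A3 because that chain was at 0 in every fibroblast library and higher on silk, and the stretch upstream of COL11A1 because that chain rose in both kinds of co-culture. The sequences are from RefSeq on GRCh38.p14, where 25 of the 32 members had an entry, and they are written 5′ to 3′ with a CCAAT box, on either strand, in capitals. The COL4A1/COL4A2 stretch is chr13:110307158-110307283 (plus strand), the COL4A3 stretch is chr2:227164374-227164623 (plus strand) and the COL11A1 stretch is chr1:103108523-103108772 (minus strand). All 3 lie outside the transcripts of the genes named, directly upstream of their annotated starts.
COL4A1/COL4A2: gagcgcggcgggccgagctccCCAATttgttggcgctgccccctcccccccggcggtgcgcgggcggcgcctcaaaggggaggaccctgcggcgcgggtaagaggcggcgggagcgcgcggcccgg
COL4A3: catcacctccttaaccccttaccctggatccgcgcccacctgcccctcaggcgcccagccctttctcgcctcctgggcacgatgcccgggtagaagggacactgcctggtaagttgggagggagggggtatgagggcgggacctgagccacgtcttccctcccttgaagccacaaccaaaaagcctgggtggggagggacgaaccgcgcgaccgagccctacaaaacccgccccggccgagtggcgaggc
COL11A1: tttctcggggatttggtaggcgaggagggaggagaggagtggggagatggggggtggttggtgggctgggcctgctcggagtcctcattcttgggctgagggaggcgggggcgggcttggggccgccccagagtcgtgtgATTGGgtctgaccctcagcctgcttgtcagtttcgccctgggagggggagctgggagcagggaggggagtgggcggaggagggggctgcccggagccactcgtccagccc
A search of both strands for CCAAT found 1 match between COL4A1 and COL4A2, none upstream of COL4A3 and 1 on the other strand upstream of COL11A1. CCAAT occurred in 21.09% of 35116 RefSeq promoters over 126 bases and in 32.01% over 250 bases. The GC box GGGCGG occurred 1, 2 and 3 times in the 3 stretches, counted over both strands, and in 34.61% of promoters over 126 bases and 42.64% over 250 bases. TATAAA was found in none of the 3 stretches and in 5.866% and 10.72% of promoters over the 2 lengths. The COL4A1/COL4A2 stretch was 80.16% G and C, against 66.4% for COL4A3 and 68.8% for COL11A1.

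Levels are given as normalized counts, recovered from the deposited log2 values and totalling 9078771 to 12662726 per library. From the spacing of low values, 1 read was estimated to be worth between 0.744 and 1.31 normalized counts, so that 3 reads, the limit that a count of 0 allows, averaged at most 3.42 normalized counts in any group. Nothing in the labels says that the 3 libraries of a group came from separate cultures, so p-values measure the spread between these libraries. The silk membranes were scraped and the LN/PC membranes were cut out of their holder, and these 2 differences cannot be told apart. The 11 epithelial markers summed to 24551 to 38512 normalized counts in the epithelial monocultures and to 33.6 to 40.0 in fibroblasts, where CDH1, PAX2, KRT18 and CDH16 were at 0. The 11 fibroblast markers other than VIM and the collagens summed to 120230 to 134510 in fibroblasts and 11257 to 25900 in LN/PC co-cultures. They summed to 939 to 1288 in silk co-cultures, against 1328 to 1684 in silk monocultures, so the silk co-cultures held little measurable fibroblast RNA by this sum. POSTN and TWIST1 were at 0 in both groups. FAP, PRRX1 and LUM were at 0 in every silk monoculture but not in every silk co-culture, where LUM averaged 2.79 ± 3.09. VIM, which the epithelial cells also expressed, counted 34434 to 39290 in silk monocultures and 58927 to 62163 in silk co-cultures. The 4 myofibroblast markers summed to 451 at most in silk monocultures, 402 in silk co-cultures and 454 in epithelial cells alone on LN/PC, and to 3980 to 6764 in LN/PC co-cultures. Of the endothelial and leukocyte markers, PECAM1 reached 97.7 in LN/PC monocultures and CD68 reached 885 in silk co-cultures, and the others were not analysed here. In these mixed samples fewer cells of a type and less RNA per cell cannot be told apart.

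The collagen chains' share of all counts was 0.437% ± 0.015 (SD, n = 3) for silk monocultures, 0.375% ± 0.008 for silk co-cultures and 0.421% ± 0.075 for LN/PC monocultures. They took 1.73% ± 0.46 in LN/PC co-cultures and 5.96% ± 0.31 in fibroblasts. The make-up differed as much as the amount. Type IV chains made up 59.9% ± 3.0 of the collagen total in silk monocultures, 52.8% ± 1.0 in silk co-cultures and 62.9% ± 9.9 in epithelial cells alone on LN/PC, but 7.40% ± 2.00 in LN/PC co-cultures and 0.841% ± 0.086 in fibroblasts. Fibrillar chains made up 6.66% ± 0.38 and 2.88% ± 1.20 in the silk and LN/PC monocultures and 8.46% ± 0.56 in silk co-cultures. They reached 52.0% ± 4.0 in LN/PC co-cultures and 50.6% ± 1.5 in fibroblasts.

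**Figure D1:**
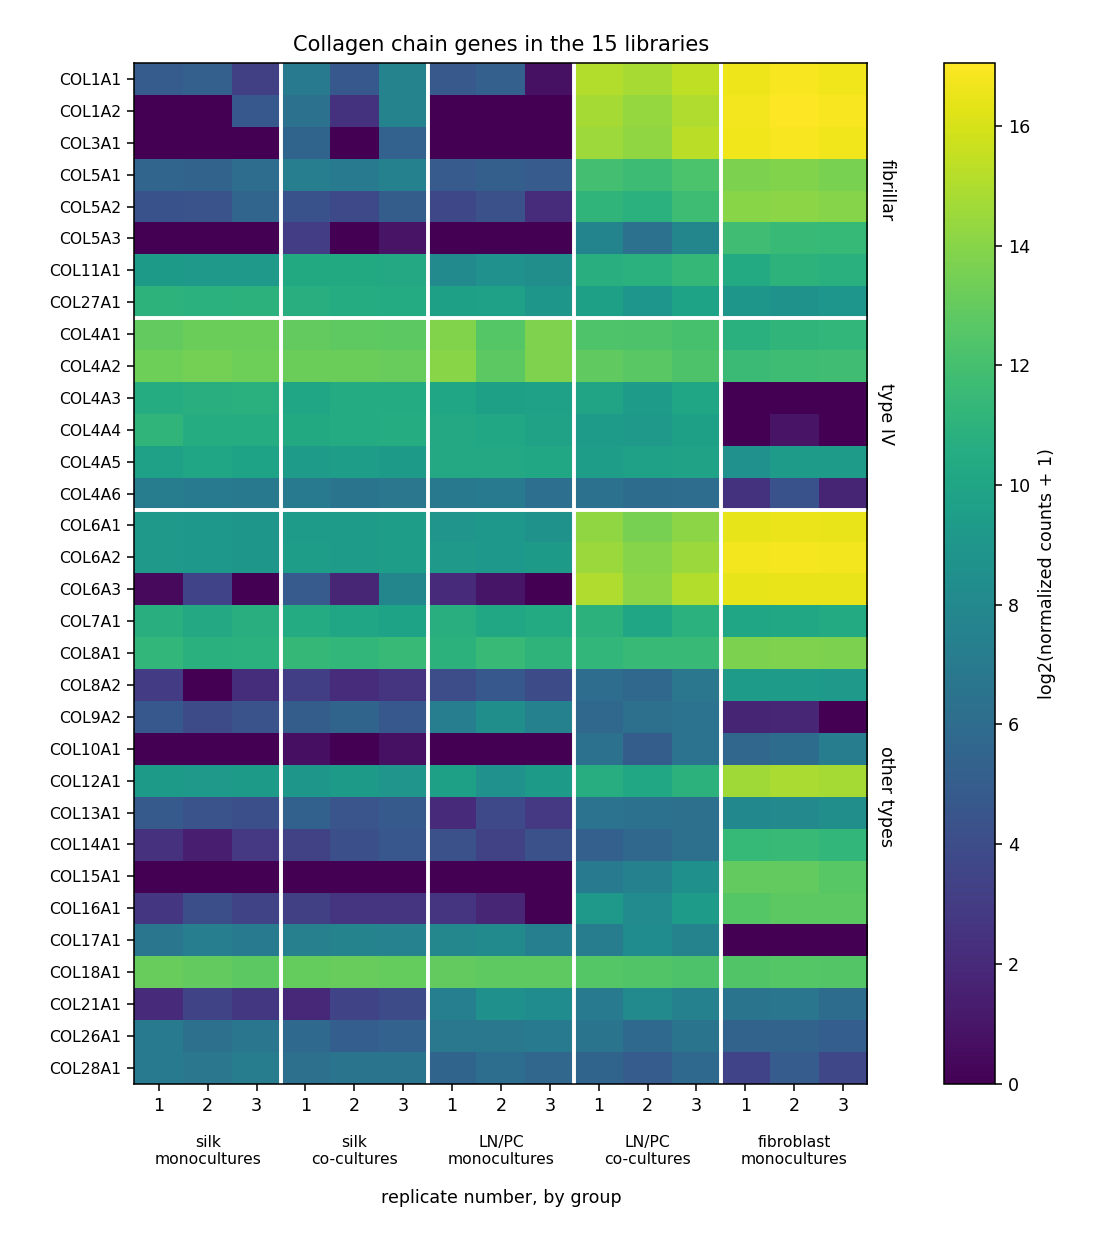
Level of each of the 32 collagen chains (rows, by class) in each of the 15 libraries (columns, by group and replicate number), as log2(normalized counts + 1), where the darkest colour is 0. The type VI chains and the fibrillar chains other than COL27A1 are brightest in the fibroblasts and the LN/PC co-cultures, COL27A1 is brightest in silk monocultures, and the silk co-cultures look like the epithelial monocultures.

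Per kilobase of transcript, which allows levels to be compared between genes, COL4A2 led in both epithelial monocultures, at 1632 ± 126 on silk and 1942 ± 786 on LN/PC (normalized counts per kb). COL4A1 followed at 1381 ± 133 and 1716 ± 698. Within each library it stood below COL4A2, at 0.787 to 0.926 times its level on silk and 0.826 to 0.972 times on LN/PC. COL18A1, a multiplexin of basement membranes whose end fragment is endostatin, came next at 1188 ± 140 and 1140 ± 80. COL8A1, a chain of the short-chain network collagen VIII, came after it on both, at 362 ± 71 and 421 ± 96. In fibroblasts COL6A2 led at 31847 ± 766 per kb, followed by COL1A2 at 22575 ± 2311 and COL6A1 at 21962 ± 854, which did not differ beyond their spread. COL3A1 stood at 19728 ± 1503 and COL1A1 at 16243 ± 1559. LN/PC co-cultures were led by COL6A2 at 5883 ± 1214, COL1A1 at 5288 ± 1075, COL1A2 at 5121 ± 1155 and COL3A1 at 4990 ± 1949, which overlapped within their spread. In silk co-cultures the order was COL4A2 at 1426 ± 69, COL18A1 at 1284 ± 38 and COL4A1 at 1114 ± 64.

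The first comparison gave the profile of each cell line, with fibroblasts set against the mean of both epithelial monocultures (limma on log2(normalized counts + 1), 9 libraries, called at an adjusted p under 0.05 over all genes). Of the 32 chains, 19 were higher and 12 lower in fibroblasts, where 58.3% of the 14502 genes tested were called, 28.0% higher and 30.3% lower. Their median difference was 3.54 on the log2 scale, against -0.024 over all genes. COL3A1, COL5A3, COL6A3, COL10A1 and COL15A1 entered the test only through their fibroblast counts, so a call of these could only be higher. Among the fibrillar chains 7 of 8 were higher, all 6 type IV chains were lower, and of the 18 other chains 12 were higher and 5 lower. The remaining chain was COL7A1, the anchoring fibril chain of epithelial attachment, which differed by -0.30 ± 0.16 (SE, adjusted p = 0.127) and stood between 947 and 1981 in all 15 libraries.

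Type I and III chains form the thick fibres of skin and other connective tissue, and the epithelial cells held almost none. COL1A1 counted 101025, 121071 and 105708 in the 3 fibroblast libraries, against 30.1, 36.2 and 8.30 in silk monocultures and 26.3, 36.7 and 0.715 in those on LN/PC. COL1A2 counted 111309, 135829 and 119327 in fibroblasts, 0, 0 and 25.1 in silk monocultures and 0 in each LN/PC monoculture. COL3A1 counted 103048, 118793 and 106208 in fibroblasts and 0 in each of the 6 libraries of epithelial cells alone. With 3 reads per library as the limit, that put fibroblasts at least 36499-fold higher. No library of one cell line came near the other for these 3 genes. The ratio of COL1A1 to COL1A2 per kb was 0.720 ± 0.009 in fibroblasts.

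Type V chains, which join type I fibrils and limit their width, were likewise fibroblast chains. COL5A1 counted 13094, 14722 and 12679 in fibroblasts, against 47.2, 42.7 and 66.5 in silk and 28.7, 34.0 and 28.8 in LN/PC monocultures, a difference of 8.38 ± 0.16. COL5A2 counted 16979, 17421 and 15599 in fibroblasts against 19.0, 19.7 and 45.8 on silk and 11.9, 17.6 and 3.53 on LN/PC for epithelial cells alone (9.97 ± 0.41). COL5A3 counted 3569, 3069 and 2751 in fibroblasts and 0 in all 6 epithelial monocultures, at least 1045-fold higher.

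The last 2 fibrillar chains were expressed by both lines. COL11A1, a chain of type XI collagen that joins thin fibrils, counted 1401, 2128 and 1782 in fibroblasts, against 625, 569 and 609 in silk and 290, 390 and 349 in LN/PC monocultures. It was higher in fibroblasts by 1.95 ± 0.15 (adjusted p = 4.33e-07). COL27A1, a fibrillar chain known from cartilage, went the other way, at 519, 433 and 488 in fibroblasts, 2067, 1907 and 1966 in silk monocultures and 839, 869 and 525 in those on LN/PC. It was the only fibrillar chain lower in fibroblasts (-1.32 ± 0.16, adjusted p = 2.43e-05).

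The type IV chains separated the lines in a graded way. COL4A3 counted 1513, 1671 and 1820.1 in silk and 1084, 822 and 861 in LN/PC monocultures, and 0 in all 3 fibroblast libraries. It was therefore at least 534-fold lower in fibroblasts than on silk and 295-fold lower than on LN/PC, although its exons overlap AC097662.1 on the other strand and the counting's strand setting is not given in the sources used here. COL4A4 counted 2270.2, 1492 and 1516 in silk and 1234, 1134 and 913 in LN/PC monocultures, and 0, 0.836 and 0 in fibroblasts. The 2 partners of one gene pair were thus nearly absent from fibroblasts together.

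COL4A1 counted 8122, 9742 and 9535 in silk monocultures and 1832, 2293 and 2483 in fibroblasts (-2.17 ± 0.25, against both monocultures). In LN/PC monocultures it counted 14249.7, 6029 and 13773, so that replicate 2 stood well under the others. COL4A2 followed the same pattern, at 10134, 11539.6 and 10110.1 in silk monocultures, 16939, 6981 and 13904 in those on LN/PC and 3155, 3506 and 3696 in fibroblasts (-1.70 ± 0.24). The ratio of COL4A1 to COL4A2 per kb was 0.847 ± 0.071 and 0.882 ± 0.079 in the silk and LN/PC monocultures and 0.624 ± 0.048 in fibroblasts.

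The third pair was split. COL4A5 counted 880.4, 1035 and 935 in silk monocultures, 1250.1, 1226 and 1212 in those on LN/PC and 390.2, 697 and 658 in fibroblasts (-0.94 ± 0.17). COL4A6 was the least abundant type IV chain per kb in the epithelial monocultures, at 151, 127 and 118 in silk monocultures, 119, 122 and 75.2 in those on LN/PC and 4.56, 18.9 and 2.36 in fibroblasts (-4.03 ± 0.47). Fibroblasts therefore held COL4A1, COL4A2 and COL4A5, and little or none of the other 3.

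Type VI collagen forms beaded filaments around cells, and all 3 of its chains were fibroblast chains. COL6A1 counted 89127, 96234 and 93869.5 in fibroblasts, against 575, 533 and 531 in silk and 477, 557 and 418 in LN/PC monocultures (7.50 ± 0.12). COL6A2 counted 107961, 113142 and 109566 in fibroblasts, 561, 549.8 and 514 in silk monocultures and 583, 533 and 618 in those on LN/PC (7.62 ± 0.11). COL6A3, the third chain of the usual filament, counted 87139.7, 90661 and 92683 in fibroblasts, but 0.370, 9.97 and 0 in silk and 3.23, 0.949 and 0 in LN/PC monocultures. The epithelial cells thus held COL6A1 and COL6A2 with almost no COL6A3.

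Among the fibril-associated chains, which lie on the surface of fibrils, 4 were higher and 1 lower in fibroblasts. COL12A1 counted 25605, 30048 and 27907 in fibroblasts against 613, 606 and 633 in silk and 844, 402 and 618 in LN/PC monocultures (5.52 ± 0.19). COL14A1 counted 2715, 2813 and 2514 in fibroblasts against 4.35, 1.67 and 6.11 in silk and 18.2, 8.77 and 17.8 in LN/PC monocultures (8.31 ± 0.34). COL16A1 counted 6089, 6944 and 6956 in fibroblasts against 5.62, 15.99 and 10.3 in silk and 4.97, 2.50 and 0 in LN/PC monocultures (10.25 ± 0.49).

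COL21A1 counted 95.4, 103 and 65.5 in fibroblasts and differed between the membranes, as given below, so its call here (1.01 ± 0.36, adjusted p = 0.0322) compared fibroblasts with a mean of unlike groups. That call was lost without 1 library, in 4 of the 9 ways, for example without fibroblast replicate 2 (0.89, adjusted p = 0.0968), and on the deposited log2 values (0.11, adjusted p = 0.610). COL9A2, a type IX chain of cartilage fibrils, counted 2.34, 2.51 and 0 in fibroblasts and was lower there (-4.87 ± 0.44).

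The multiplexins, basement membrane collagens with interrupted helices, went opposite ways. COL15A1 counted 8026, 7841 and 6177 in fibroblasts and 0 in all 6 epithelial monocultures, at least 2453-fold higher. COL18A1 was high in every library, at 8629, 8024 and 6817 in silk monocultures, 8103, 7121 and 7294 in those on LN/PC and 5561, 6122 and 5865 in fibroblasts. Its difference of -0.39 ± 0.13 (adjusted p = 0.0246) was lost without silk replicate 2 or any 1 fibroblast library, with adjusted p between 0.0509 and 0.121, and its exons overlap SLC19A1 on the other strand.

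Of the short-chain network chains, COL8A1 counted 13261, 13913 and 13275 in fibroblasts against 2527, 1797 and 1868 in silk and 2010.0, 3029.5 and 2163 in LN/PC monocultures (2.62 ± 0.16). COL8A2, its usual partner, counted 651, 647 and 582 in fibroblasts, against 7.14, 0 and 3.76 in silk and 15.5, 24.7 and 14.8 in LN/PC monocultures. COL10A1, the collagen of hypertrophic cartilage, counted 49.6, 63.6 and 151 against 0 in all 6 epithelial monocultures, at least 29.3-fold higher.

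The transmembrane chains were split between the lines. COL13A1, a transmembrane chain of focal contacts, counted 245, 263 and 343 in fibroblasts against 27.3, 19.7 and 17.0 in silk and 3.35, 12.5 and 5.997 in LN/PC monocultures (4.46 ± 0.35). COL17A1, the transmembrane collagen of epithelial hemidesmosomes, was at 0 in every fibroblast library. It counted 100.3, 157 and 124 in silk monocultures and 236, 287 and 160.0 in those on LN/PC.

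COL26A1 was lower in fibroblasts, at 42.6, 42.7 and 33.1, than in silk monocultures, at 134, 78.9 and 103, or those on LN/PC, at 112, 115 and 132 (-1.48 ± 0.22). COL28A1 was lower as well (-2.39 ± 0.35), at 9.63, 30.2 and 11.1 in fibroblasts. COL28A1, a chain with von Willebrand A domains, is known from peripheral nerve.

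The genes that modify, fold, cross-link and bind collagen were followed as a list of 68 genes, of which 63 were in the table. In fibroblasts 46 of the 63 were higher and 10 lower than in the epithelial monocultures, where 28.0% of all genes tested were higher and 30.3% lower, and all 6 of its cross-linking genes were higher. LOX, the lysyl oxidase that starts cross-links, averaged 11544 ± 500.0 in fibroblasts, 1226 ± 225 in silk and 1249 ± 169 in LN/PC monocultures (3.23 ± 0.14). LOXL4, a related oxidase, averaged 5057 ± 599 in fibroblasts and 0 in the epithelial monocultures. The chaperone of procollagen, SERPINH1, was higher in fibroblasts by 2.44 ± 0.12.

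Of the 9 collagen receptors listed 7 were in the table, and 4 of them were higher and 2 lower in fibroblasts. DDR2, the discoidin receptor for fibrillar collagen, averaged 10488 ± 360.4 in fibroblasts and 3.12 ± 0.84 in silk monocultures. The integrin chain ITGA11 was higher in fibroblasts by 12.44 ± 0.24. DDR1, the discoidin receptor that epithelia carry, was lower by 5.00 ± 0.20 on the log2 scale, and ITGA2 by 1.72 ± 0.14. Of the 8 basement membrane partners of type IV collagen, 4 were higher and 2 lower in fibroblasts. The largest changes among the higher ones were those of NID1 (10.63 ± 0.54) and the laminin chain LAMC1 (2.04 ± 0.13). The lower ones were the laminin chain LAMA5 (-6.15 ± 0.17) and the proteoglycan AGRN (-4.74 ± 0.16).

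The membranes were first compared with epithelial cells alone, silk against LN/PC monocultures, in a fit over the 12 epithelial and co-culture libraries. On silk 8 chains were higher and 4 lower, 12 of 32, where 11.7% of the 14433 genes tested were called, 5.88% higher and 5.79% lower. The median over the chains was 0.055 on the log2 scale, against 0.025 over all genes. With only the 6 compared libraries in the fit, 6 of the 24 chains then tested were called. Of the genes called, 50.4% were higher on silk, and 67% with each library rescaled to epithelium-restricted genes.

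**Figure D2:**
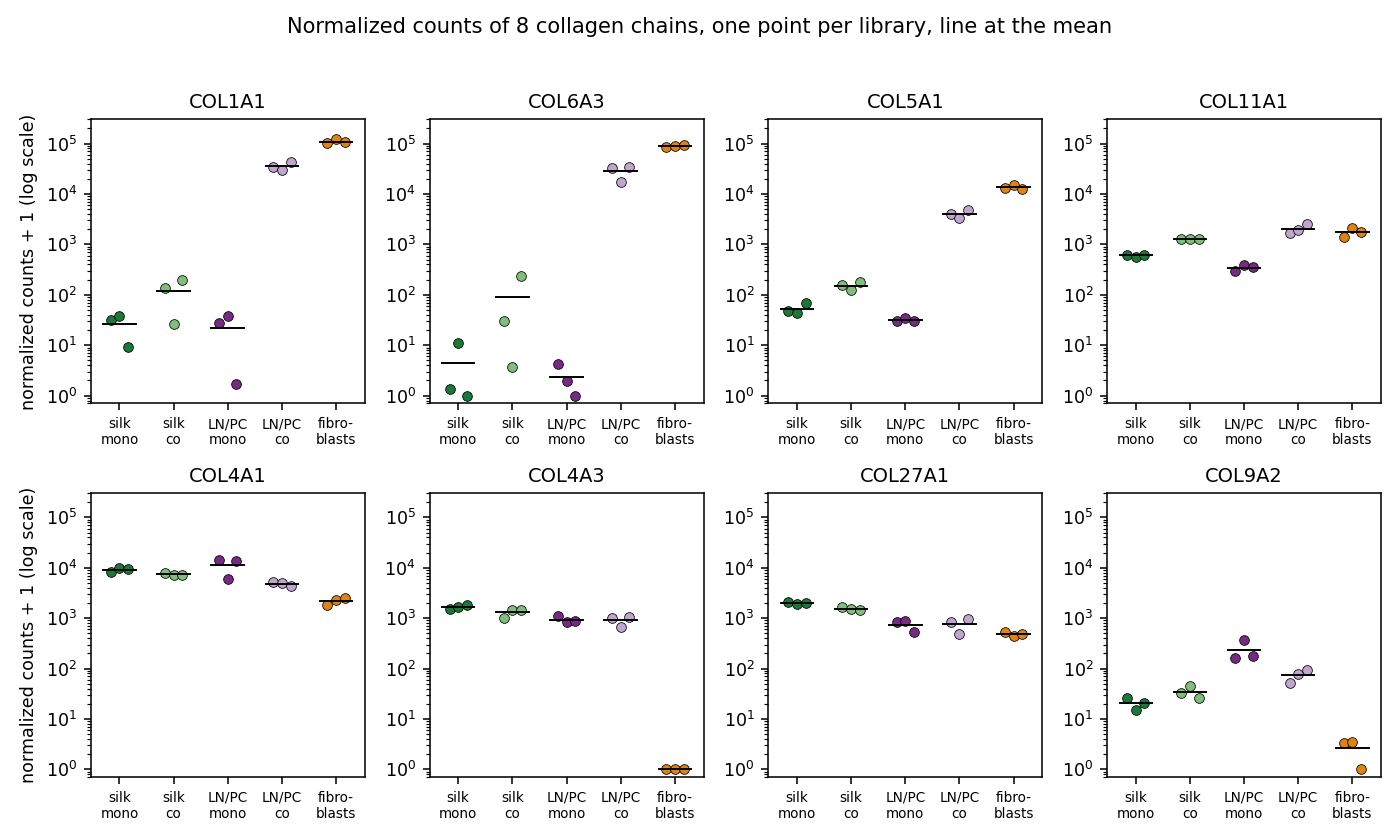
Normalized counts + 1 (log scale) of 8 collagen chains in each library of the 5 groups, with a line at the group mean. COL27A1 and COL4A3 are higher in silk than in LN/PC monocultures, COL9A2 is lower, and COL11A1 is higher in each kind of co-culture than in the epithelial monocultures.

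COL27A1 was higher on silk by 1.45 ± 0.22 (adjusted p = 0.000895), and its 3 silk libraries, given above, all stood at 1907 or more, against 869 or less on LN/PC. COL11A1 was higher by 0.82 ± 0.16 (adjusted p = 0.00548), without overlap. COL4A3 was higher by 0.86 ± 0.19 (adjusted p = 0.00972), also without overlap. Its neighbour COL4A4 was higher by 0.67 ± 0.18 (adjusted p = 0.0290). That call was lost without silk replicate 1, which held the highest count (0.47, adjusted p = 0.134), or without LN/PC replicate 3 (0.54, adjusted p = 0.129), and with only the 6 compared libraries in the fit (adjusted p = 0.0816).

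The 2 most abundant type IV chains did not pass the test. COL4A1 differed by -0.22 ± 0.25 (adjusted p = 0.608) and COL4A2 by -0.16 ± 0.26 (adjusted p = 0.729), with silk libraries inside the LN/PC range. COL4A5 was below LN/PC in every silk library and missed the threshold (-0.37 ± 0.14, adjusted p = 0.0842), and COL4A6 differed by 0.35 ± 0.25 (adjusted p = 0.374).

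The largest differences among the chains lay in 2 fibril-associated genes. COL21A1 counted 3.37, 10.5 and 5.88 in silk monocultures and 160.1, 380.2 and 311 in those on LN/PC, a difference of -5.26 ± 0.51 (adjusted p = 1.98e-05). COL9A2 counted 24.8, 14.4 and 19.5 on silk and 158, 363 and 178 on LN/PC, a difference of -3.44 ± 0.36 (adjusted p = 2.91e-05). Neither overlapped between the membranes. COL28A1 was higher on silk, at 129.6, 109 and 141 against 44.0, 70.4 and 48.9 (1.23 ± 0.29, adjusted p = 0.0132).

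The other 5 calls rested on low counts and each was lost without 1 library. COL13A1 (1.56 ± 0.41), COL16A1 (1.98 ± 0.58) and COL5A1 (0.73 ± 0.23) were higher on silk, and COL14A1 (-1.71 ± 0.50) and COL8A2 (-2.48 ± 0.62) were lower, all with group means under 100. Without silk replicate 2, the adjusted p was 0.134 for COL14A1, 0.128 for COL16A1, 0.0562 for COL13A1 and 0.0660 for COL8A2. Without LN/PC replicate 3 it was 0.126 for COL5A1.

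Of the 62 machinery genes tested, 3 were higher and 8 lower on silk, where 11.7% of all genes were called, 5.88% higher and 5.79% lower, so the higher ones were no more frequent than among all genes. Of the 6 genes for degradation and uptake, 3 were lower: the collagen uptake receptor MRC2 (-1.52 ± 0.17), the gelatinase MMP2 (-1.25 ± 0.19) and the prolidase PEPD (-0.90 ± 0.25). The endoplasmic reticulum chaperone HSPA5 was lower by 0.90 ± 0.22 on the log2 scale, SERPINH1 by 0.49 ± 0.14 and the prolyl 3-hydroxylase P3H1 by 0.65 ± 0.17. The procollagen processing enhancer PCOLCE2 was higher (1.83 ± 0.23), at 268 ± 63 against 75.2 ± 18.8. None of the 8 basement membrane partners of type IV collagen was called.

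Adding fibroblasts on LN/PC, against LN/PC monocultures, raised 16 chains and lowered 5, 21 of 32, where 12.5% of the 14433 genes tested were called, 7.80% higher and 4.72% lower. The median over the chains was 1.61 on the log2 scale, against -0.041 over all genes. COL5A3, COL10A1 and COL15A1 entered the 12-library fit only through the LN/PC co-cultures, so a call of these could only be a rise. Of the fibrillar chains 7 of 8 rose, of the type IV chains 4 of 6 fell, and of the other 18 chains 9 rose and 1 fell. The risers were chains of the fibroblast line, and the fibroblast markers given above rose with them, so what each cell line contributed was not tested.

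COL1A1 counted 34095, 29195 and 43429 in LN/PC co-cultures, a rise of 11.50 ± 0.91 from LN/PC monocultures. COL1A2 counted 27925, 21350.4 and 33848, at least 9248-fold above LN/PC monocultures, which were all at 0. COL3A1 counted 23909, 19236 and 39837, also from 0. COL5A1 counted 4006, 3282 and 4859.5 (6.99 ± 0.23), COL5A2 counted 2301, 1908 and 3478 (7.92 ± 0.48), and COL5A3 counted 209, 84.9 and 226, at least 57.8-fold above the monocultures at 0. For each of these chains every co-culture stood far above every LN/PC monoculture and below every fibroblast library.

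COL11A1 behaved otherwise. It counted 1676, 1901 and 2581 in LN/PC co-cultures, up by 2.56 ± 0.16 (adjusted p = 1.54e-08), and so overlapped the fibroblast libraries, at 1401, 2128 and 1782. COL27A1, at 844, 491 and 967, changed by 0.02 ± 0.22 (adjusted p = 0.963).

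The type VI chains rose together, COL6A1 to 18684, 12177 and 17771 (5.05 ± 0.17) and COL6A2 to 22806, 15509 and 22767 (5.12 ± 0.15). COL6A3 counted 32914, 17476 and 34790.3, from 3.23 or less. Replicate 2 was the lowest for all 3 chains. COL12A1 rose to 1606, 1199 and 1984 (1.39 ± 0.23), COL16A1 to 583, 303 and 678 (7.49 ± 0.58) and COL15A1 to 131, 177 and 381, at least 76.6-fold above the monocultures at 0.

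COL10A1 counted 83.2, 31.0 and 88.5, from 0, where the fibroblast libraries ranged from 49.6 to 151, and COL13A1 counted 89.9, 86.9 and 79.0 (3.53 ± 0.41). COL14A1 rose to 35.8, 52.1 and 78.1 (1.82 ± 0.50, adjusted p = 0.0245), a call lost without LN/PC replicate 2, LN/PC co-culture replicate 2 or LN/PC co-culture replicate 3, with adjusted p up to 0.129. COL8A2, at 67.8, 51.8 and 105, just missed the threshold (1.95 ± 0.62, adjusted p = 0.0509). COL8A1, at 2496, 2919 and 3034, changed by 0.25 ± 0.18 (adjusted p = 0.392).

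Type IV chains fell as the fibrillar chains rose. COL4A1 counted 5174, 5008 and 4395 in LN/PC co-cultures, lower than in any LN/PC monoculture (-1.13 ± 0.25, adjusted p = 0.00667). COL4A2 counted 7425, 6597 and 4939.5 (-0.92 ± 0.26, adjusted p = 0.0275), where LN/PC monoculture replicate 2 at 6981 lay among them. COL4A4 fell to 695, 579 and 839 (-0.64 ± 0.18, adjusted p = 0.0312) and COL4A5 to 731, 862 and 916 (-0.56 ± 0.14, adjusted p = 0.0119). COL4A3, at 1008, 671 and 1045, did not pass the test (-0.04 ± 0.19, adjusted p = 0.921), nor did COL4A6, at 82.1, 63.8 and 68.9 (-0.52 ± 0.25, adjusted p = 0.191).

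These 4 falls depended on what the libraries were scaled to. The epithelium-restricted genes used for rescaling were chosen for high levels in the epithelial monocultures and far lower levels in fibroblasts. The monocultures compared here thus took part in the choice, so the rescaling is no independent standard for these falls. With each library rescaled to epithelium-restricted genes, which moved the median over all genes from -0.041 to 0.382 on the log2 scale in this comparison, COL4A1 fell by 0.70 (adjusted p = 0.0646), COL4A2 by 0.49 (0.192), COL4A4 by 0.21 (0.452) and COL4A5 by 0.13 (0.574), and none was called. Of the called chains 18 were then higher and 1 lower, and 96.7% of all genes called were higher, against 62.3% before. With only the 6 compared libraries in the fit, 17 chains were higher and 2 lower, and COL4A2 (adjusted p = 0.103), COL4A4 (0.0654) and COL4A5 (0.0567) were not called. Leaving out 1 library ended the call of COL4A1 in none of the 12 ways. That of COL4A2 ended without LN/PC monoculture replicate 1 (-0.66, adjusted p = 0.142) or 3, or LN/PC co-culture replicate 2 or 3. That of COL4A4 ended without replicate 1 or 2 of either LN/PC group, at adjusted p = 0.133 at most, and that of COL4A5 without LN/PC co-culture replicate 1 (-0.47, adjusted p = 0.101).

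COL9A2, which the fibroblasts lacked, fell to 51.9, 78.2 and 90.7 (-1.59 ± 0.36, adjusted p = 0.00766), below every LN/PC monoculture. Without LN/PC co-culture replicate 1 its adjusted p was 0.0522. COL21A1 counted 135, 267 and 183 (-0.51 ± 0.51, adjusted p = 0.567), COL26A1 94.8, 54.5 and 92.3, COL28A1 45.1, 29.9 and 56.4 and COL17A1 142, 313 and 194, and none of these passed. COL18A1 stood at 5949.8, 5464 and 4959, below every LN/PC monoculture, and missed the threshold (-0.46 ± 0.16, adjusted p = 0.0635).

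**Figure D3:**
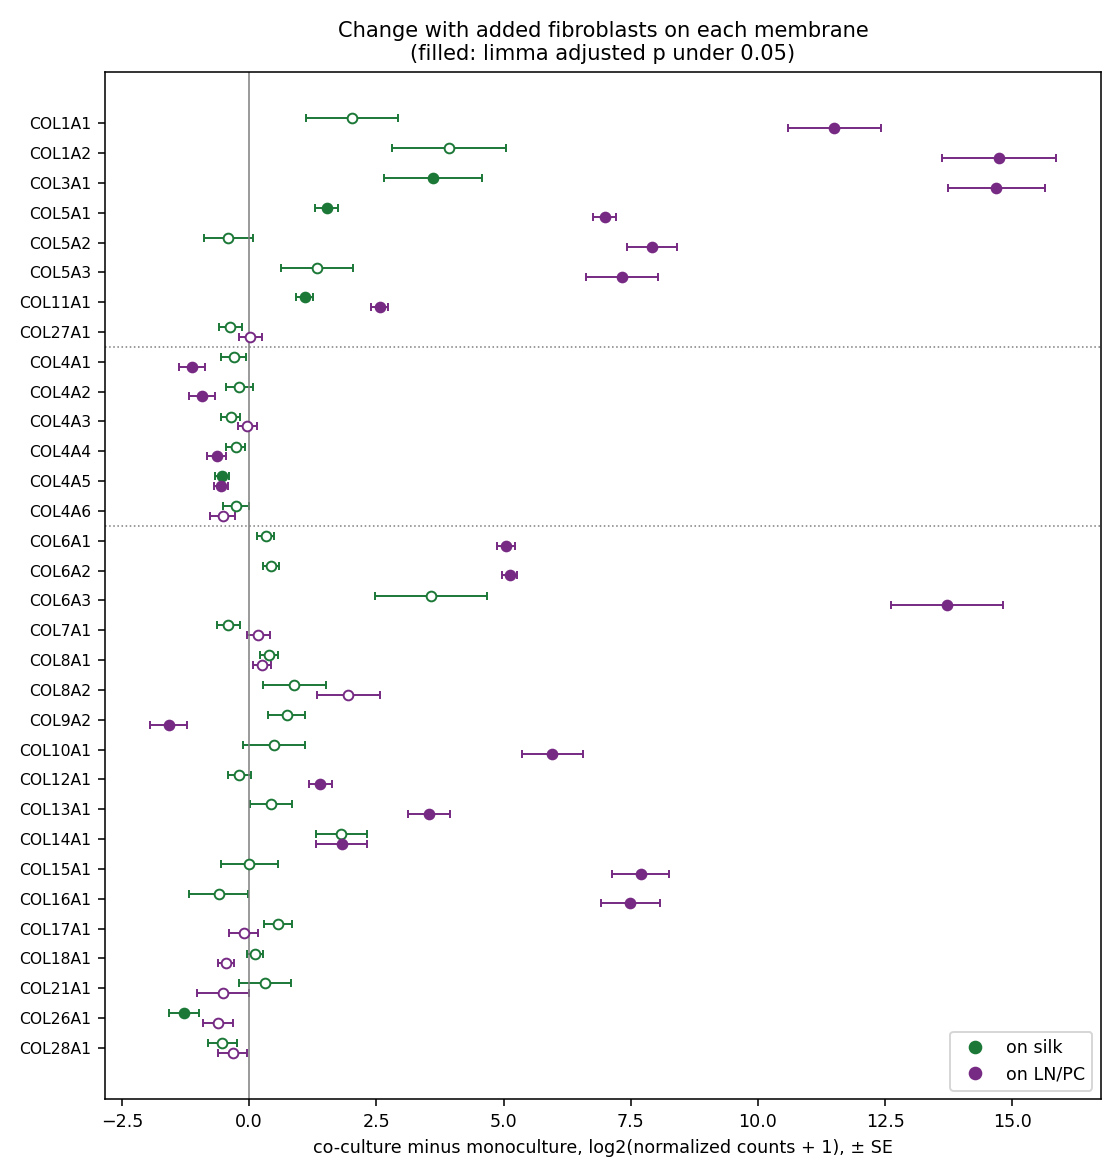
Co-culture minus monoculture difference of each of the 32 chains on silk and on LN/PC, in log2(normalized counts + 1) with its SE, where filled points have a limma adjusted p under 0.05. On LN/PC 16 chains rose and 5 fell, and on silk 3 rose and 2 fell.

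For 17 chains, each at least 5-fold higher in fibroblasts than in LN/PC monocultures, the excess in each LN/PC co-culture over the LN/PC monocultures was taken. It was expressed as a percentage of the excess in fibroblast monocultures. The reference genes were held to 100-fold over both groups of epithelial monocultures, so the 2 sets were not chosen alike. COL11A1 and COL8A1 averaged 343 and 2401 in LN/PC monocultures, so a change in epithelial cells would enter their percentages. Over these reference genes, 100 fibroblast-restricted genes that are no collagens, the median percentage was 13.9, 9.44 and 14.7 in the 3 co-cultures. It was 12.7% ± 2.8 on average, with quartiles of 7.09% and 20.8% over the genes' means. Of the 17 chains 7 had means above those quartiles, 5 below and 5 between. Quartiles by definition leave 1 gene in 2 of the reference set outside, and the reference genes ran from 0.0715% for EPHB6 to 69.3% for CTHRC1, so no wider spread of the collagens follows from this count. The percentage was 120% ± 33 for COL11A1, 32.5% ± 6.6 for COL1A1, 31.5% ± 10.5 for COL6A3, 29.8% ± 5.9 for COL5A1 and 28.2% ± 2.1 for COL13A1. COL3A1 at 25.3% ± 9.9 and COL1A2 at 22.7% ± 5.1 completed the upper group.

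At the lower end stood COL14A1 at 1.52% ± 0.80, COL15A1 at 3.12% ± 1.81, COL12A1 at 3.58% ± 1.44, COL8A1 at 3.75% ± 2.56 and COL5A3 at 5.54% ± 2.46. Among chains of one trimer, COL6A1 and COL6A2 were at 17.0% ± 3.8 and 18.0% ± 3.8, with a lower mean than COL6A3. The ratio of COL1A1 to COL1A2 per kb was 1.04 ± 0.06 in LN/PC co-cultures, with 0.982 as its lowest value, against 0.730 as the highest in fibroblasts.

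**Figure D4:**
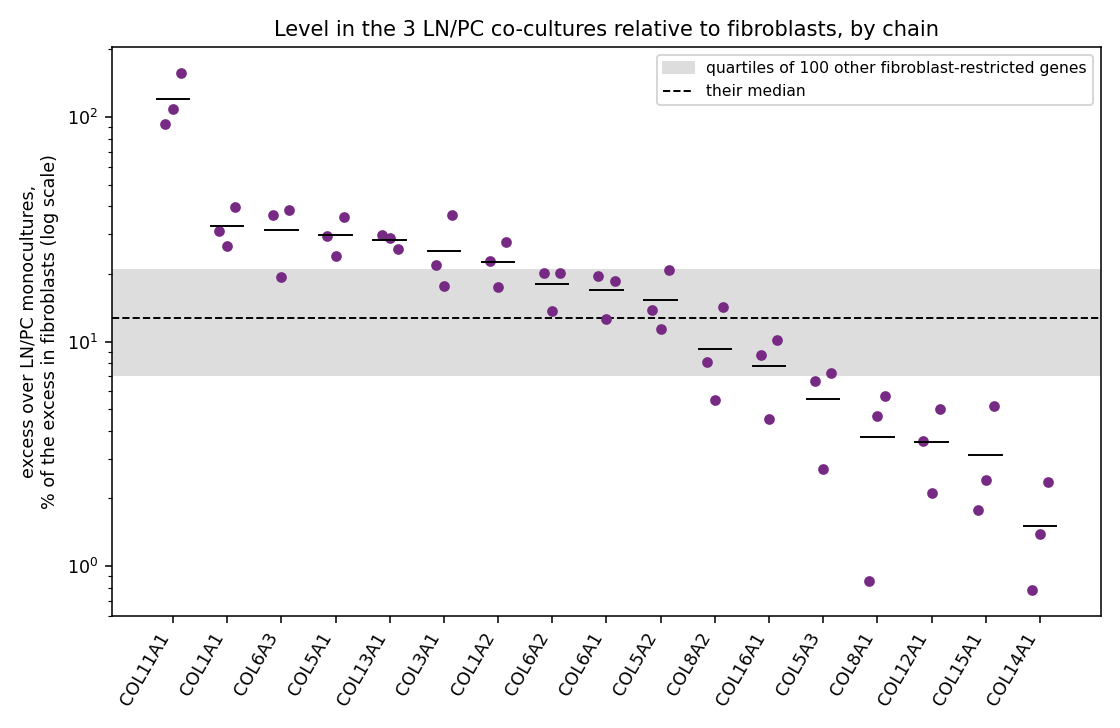
Excess of each of 17 chains in the 3 LN/PC co-cultures over the LN/PC monocultures, as a percentage (log scale) of the excess in fibroblasts, with a line at the chain's mean. The grey band marks the quartiles of 100 fibroblast-restricted genes that are no collagens, and 7 chains have means above it and 5 below.

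Relative levels were tested within 272 fibroblast-restricted genes, which were chosen from the monocultures, including the fibroblast libraries compared here. Each library was centred on the median of its restricted genes that are no collagens, and LN/PC co-cultures were set against fibroblasts. Of the 12 collagen chains among them 7 were higher and 4 lower in co-culture, where 64.7% of the 272 genes were called (34.6% higher, 30.1% lower), a share that leaves little to read from the count itself. Higher were COL1A1 (1.38 ± 0.18), COL6A3 (1.28 ± 0.12), COL5A1 (1.26 ± 0.16), COL3A1 (0.96 ± 0.17), COL1A2 (0.85 ± 0.16), COL6A2 (0.55 ± 0.15) and COL6A1 (0.47 ± 0.15). Lower were COL14A1 (-2.63 ± 0.31), COL15A1 (-2.13 ± 0.33), COL5A3 (-1.27 ± 0.17) and COL16A1 (-0.74 ± 0.13).

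Some of these depended on the scale. On the deposited log2 values 3 chains were higher and 6 lower. COL6A1 (-0.33) and COL6A2 (-0.25) turned direction, COL5A2 went from 0.26 to -0.49, and COL1A2 (0.05, adjusted p = 0.745) and COL3A1 (0.16, adjusted p = 0.414) were no longer called. COL6A1 was also lost without any 1 of the 3 fibroblast libraries, with adjusted p between 0.0570 and 0.0750. The calls of COL1A1, COL6A3, COL5A1, COL14A1, COL15A1, COL5A3 and COL16A1 were kept under every alternative run.

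Among the machinery genes 31 of 62 rose and 1 fell with fibroblasts on LN/PC, where 7.80% of all genes rose and 4.72% fell, including 5 of 6 cross-linking genes. LOX averaged 5305 ± 875 in LN/PC co-cultures (2.08 ± 0.17), and LOXL4 averaged 444 ± 185, from 0 in the monocultures. The collagen-degrading protease CTSK averaged 8003 ± 4176, against 89.2 ± 10.8 in LN/PC monocultures (6.31 ± 0.33). The prolyl 4-hydroxylase P4HA2 averaged 2886 ± 509.6 in LN/PC co-cultures, against 2296 ± 121 in fibroblasts and 734 ± 252 in LN/PC monocultures (2.01 ± 0.19). Of the 8 basement membrane partners 1 rose, NID1, to 285 ± 121 from 2.81 ± 2.45.

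On silk, against silk monocultures, adding fibroblasts raised 3 chains and lowered 2, 5 of 32, where 3.78% of the 14433 genes tested were called, 2.91% higher and 0.866% lower. The median over the chains was 0.32 on the log2 scale, against 0 over all genes. With epithelium-restricted rescaling 6 chains were higher and 1 lower, and 94% of the genes called were higher, against 77.1% before. The count fell to 3 without silk monoculture replicate 1 or 3, silk co-culture replicate 1 or LN/PC co-culture replicate 2, and to 2 without silk co-culture replicate 3. The silk monocultures also served the membrane comparison above, as the LN/PC monocultures served both of theirs, so the comparisons are not independent.

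COL11A1 and COL5A1 gave the clearest rises. COL11A1 counted 1281, 1293 and 1260.1 in silk co-cultures, against 625, 569 and 609 in silk monocultures, a rise of 1.09 ± 0.16 (adjusted p = 0.000896) with a narrow spread and no overlap. COL5A1 rose to 153, 121 and 179.9 from 47.2, 42.7 and 66.5 (1.53 ± 0.23, adjusted p = 0.000795), again without overlap. Both calls were kept under every alternative run, among them each library left out in turn.

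These rises were set beside the fibroblast RNA in the same libraries. For the 100 fibroblast-restricted genes, the excess over silk monocultures was taken as a percentage of the excess in fibroblasts. Its median over the genes was 0.0179%, 0% and 0.112% in the 3 silk co-cultures. At their mean share, the fibroblast level of COL11A1 would amount to 0.765 normalized counts in silk co-cultures and that of COL5A1 to 5.83, where COL11A1 averaged 1278 ± 16.5 in silk co-cultures and 601 ± 28.5 in silk monocultures, and COL5A1 151 ± 29.2 and 52.1 ± 12.7. On LN/PC the corresponding amount for COL11A1 was 224, and its mean there was 2052 ± 471 in co-culture and 343 ± 50.4 in monoculture. Which cells carried the rise was not tested.

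COL3A1 counted 44.3, 0 and 39.5 in silk co-cultures and 0 in each silk monoculture, and its call (3.61 ± 0.96, adjusted p = 0.0459) was lost in 9 of the 12 omissions of 1 library, with adjusted p up to 0.257 without silk co-culture replicate 3, as well as with no filter on low values (0.0541) and on the deposited log2 values (0.0922). The same 2 libraries, replicates 1 and 3, were the higher ones for COL1A1 (138, 25.3 and 196), COL1A2 (80.3, 4.75 and 194) and COL6A3 (29.1, 2.62 and 230.5), none of which passed. COL5A2, at 18.3, 12.3 and 31.1, did not move with them (-0.41 ± 0.48, adjusted p = 0.740), and COL15A1 was at 0 in every silk co-culture.

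COL4A5 fell on silk to 642, 715 and 614 (-0.53 ± 0.14, adjusted p = 0.0392), below every silk monoculture. Its call was lost with epithelium-restricted rescaling (-0.34, adjusted p = 0.260) and without any 1 silk co-culture library, silk monoculture replicate 2 or 3, or LN/PC co-culture replicate 2, with adjusted p up to 0.205. COL26A1 fell to 55.2, 32.7 and 40.1 from 134, 78.9 and 103 (-1.28 ± 0.30, adjusted p = 0.0205), a call lost without silk monoculture replicate 1 or 3 or silk co-culture replicate 2 or 3, with adjusted p up to 0.102.

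The other 5 type IV chains had lower means as well, and none passed the test. COL4A1 counted 7853, 7192 and 7058 in silk co-cultures (-0.31 ± 0.25, adjusted p = 0.603) and COL4A2 9432, 9589 and 8751 (-0.19 ± 0.26, adjusted p = 0.775), each below every silk monoculture. COL4A3 counted 1022, 1447 and 1457, also below each of them (-0.36 ± 0.19, adjusted p = 0.354), COL4A4 1334, 1453 and 1517 (-0.27 ± 0.18, adjusted p = 0.517) and COL4A6 129.9, 95.3 and 106 (-0.26 ± 0.25, adjusted p = 0.667).

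The remaining chains gave no call on silk. COL6A1 at 641, 650.4 and 769 and COL6A2 at 742, 701 and 742 lay above every silk monoculture (0.33 ± 0.17 and 0.43 ± 0.15, adjusted p = 0.351 and 0.148). COL27A1 at 1633, 1532 and 1432 and COL28A1 at 76.2, 93.8 and 92.6 lay below every silk monoculture. COL14A1, at 8.96, 17.1 and 23.5, came close to the threshold (1.81 ± 0.50, adjusted p = 0.0543). COL8A1 counted 2666, 2516 and 2859, COL12A1 counted 530.0, 619 and 479, COL17A1 counted 171, 196 and 192 and COL18A1 counted 8219, 8718 and 8437 in silk co-cultures. Chains that were low in silk monocultures were low here too, with COL5A3 at 7.63, 0 and 0.866, COL10A1 at 0.659, 0 and 0.664, COL8A2 at 7.93, 3.51 and 5.09, COL16A1 at 8.60, 5.23 and 5.09 and COL13A1 at 38.1, 21.3 and 28.0.

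Of the 62 machinery genes 5 rose on silk and none fell, where 2.91% of all genes rose and 0.866% fell. LOX rose to 4172 ± 492 from 1226 ± 225 (1.77 ± 0.17, adjusted p = 1.27e-05), the related LOXL2 to 6408 ± 380.3 from 2883 ± 299 (1.16 ± 0.25) and P4HA2 to 1120 ± 49.8 from 615 ± 26.5 (0.86 ± 0.19). HSPA5 rose to 25794 ± 1422 from 8291 ± 1110 (1.64 ± 0.22). The fifth was DDR2, at 25.2 ± 16.2 against 3.12 ± 0.84, which is named although its level falls outside the rule for named genes. LOXL2 stood higher in silk co-cultures than its mean in fibroblasts, 4073 ± 447.

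Whether co-culture acted differently on the 2 membranes was tested as an interaction, the change on silk minus the change on LN/PC. It was called for 16 of 32 chains, 1 positive and 15 negative, where 7.73% of the 14433 genes tested were called, 3.15% positive (higher) and 4.59% negative (lower). Of the genes called 40.7% were positive, and 18.8% with epithelium-restricted rescaling. COL5A3, COL10A1 and COL15A1, tested only through their LN/PC co-culture counts, could only be negative. COL1A1 (-9.48 ± 1.28) and COL6A1 (-4.72 ± 0.24) were among the 15. The interaction for COL11A1 was -1.48 ± 0.23 (adjusted p = 0.000585), so that it rose on both membranes and more on LN/PC. The positive one was COL9A2 (2.32 ± 0.51, adjusted p = 0.00892), which counted 31.1, 45.0 and 24.7 in silk co-cultures. No type IV chain passed, the nearest being COL4A1 (0.82 ± 0.36, adjusted p = 0.192). COL4A2 gave 0.73 ± 0.37 (0.263), COL4A3 gave -0.33 ± 0.27 (0.519), COL4A4 gave 0.37 ± 0.26 (0.436), COL4A5 gave 0.03 ± 0.19 (0.948) and COL4A6 gave 0.27 ± 0.35 (0.712).

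Co-cultures on the 2 membranes were also compared directly. The fibroblast markers without VIM summed to 939 to 1288 in silk co-cultures and 11257 to 25900 in LN/PC co-cultures. Their part in the differences below was not tested. Of the 32 chains 5 were higher and 20 lower on silk, 25 in all, where 36.1% of the 14433 genes tested were called, 18.5% higher and 17.6% lower. Of the genes called 51.3% were higher, and 36.8% with epithelium-restricted rescaling. The median over the chains was -1.54, against 0.03 over all genes. COL5A3, COL10A1 and COL15A1, tested only through their LN/PC co-culture counts, could only be lower on silk. All fibrillar chains except COL27A1 were lower, among them COL11A1 (-0.66 ± 0.16, adjusted p = 0.00586), which had been higher on silk in monoculture. Type VI chains were lower too, at -4.54 ± 0.17 for COL6A1, -4.78 ± 0.15 for COL6A2 and -9.85 ± 1.097 for COL6A3. Among the remaining lower chains were COL12A1 (-1.53 ± 0.23), COL16A1 (-6.11 ± 0.58), COL15A1 (-7.70 ± 0.56), COL10A1 (-5.47 ± 0.60), COL8A2 (-3.54 ± 0.62), COL13A1 (-1.55 ± 0.41), COL14A1 (-1.71 ± 0.50, adjusted p = 0.0145) and COL26A1 (-0.89 ± 0.30, adjusted p = 0.0274). The call of COL14A1 was lost in 2 and that of COL26A1 in 4 of the 12 omissions of 1 library, with adjusted p up to 0.0774 and 0.114.

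The 5 higher chains were COL27A1 (1.05 ± 0.22), COL4A4 (1.04 ± 0.18), COL28A1 (1.02 ± 0.29), COL18A1 (0.64 ± 0.16) and COL4A3 (0.54 ± 0.19, adjusted p = 0.0375). COL27A1, COL28A1, COL4A3 and COL4A4 were thus higher on silk with and without fibroblasts. COL4A3 overlapped between the co-cultures, and its call was lost without silk co-culture replicate 2 or 3 or LN/PC co-culture replicate 2, with adjusted p up to 0.202, and with epithelium-restricted rescaling (0.39, adjusted p = 0.209). COL28A1 was lost without LN/PC co-culture replicate 2 (0.78, adjusted p = 0.0531). COL21A1 stayed lower on silk (-4.43 ± 0.51, adjusted p = 8.13e-06), at 2.72, 10.2 and 14.9 in silk co-cultures, as did COL9A2 (-1.11 ± 0.36, adjusted p = 0.0253), whose call was lost in 4 of the 12 omissions of 1 library. The other 4 type IV chains missed the threshold. COL4A1 (0.60 ± 0.25, adjusted p = 0.0723), COL4A2 (0.57 ± 0.26, adjusted p = 0.0964) and COL4A6 (0.61 ± 0.25, adjusted p = 0.0644) lay above every LN/PC co-culture in each silk co-culture, and COL4A5 (-0.34 ± 0.14, adjusted p = 0.0600) lay below.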

How the data were processed

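The table the authors deposited held log2 values whose form matches a variance-stabilizing transformation, with 1 lowest value shared by all libraries. Salmon 1.10.3 and DESeq2 are named in the submitters' processing notes. Genome build, annotation, strand setting and normalization: not given in the sources used here. RNA was poly-A selected and libraries were strand-specific, per the labels' protocols. The deposited log2 values were inverted to normalized counts in closed form, taking that form as given; low values came out within 0.1 of a whole read for 31.3 to 53.0% only, so no count model was used. Approximate depth was 8454821 to 14069696 reads, which bounds the precision of low genes.

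Genes with at least 10 normalized counts in at least 3 libraries of a fit were tested with limma 3.58.1 (trend) in R 4.3.3 on log2(normalized counts + 1), adjusted by Benjamini-Hochberg over all genes tested and called under 0.05. All 32 chains passed the filter in both main fits. COL3A1, COL5A3, COL6A3, COL10A1 and COL15A1 passed it in the 9-library fit only through the fibroblast libraries. COL5A3, COL10A1 and COL15A1 passed it in the 12-library fit only through the LN/PC co-cultures. The direction of their calls against these groups was therefore set by the filter and is no result of the test. Fits held 9, 12 or 6 libraries, as stated with each comparison. Only the contrast of silk against LN/PC monocultures in the 12-library fit was tried on simulated data. Fold changes of genes near 0 depend on the pseudocount of 1, so bounds at 3 reads are given for groups at 0. Lengths are those of the longest protein-coding transcript in GENCODE v29. A gene counted as fibroblast-restricted when its fibroblast mean reached 100 and exceeded 100-fold the mean of either group of epithelial cells alone. For the reference genes of the percentages a fibroblast mean of 1000 was required. The 17 chains beside them were held to 5-fold over LN/PC monocultures. Values in every library are given for each chain called in a comparison with a group mean of at least 100 and for each type IV chain; up to 4 machinery genes per role were named by size of change. The members and lists were chosen with earlier results of these data known. Alternatives were another pseudocount, no filter, deposited log2 values, epithelium-restricted rescaling, only the compared groups, a replicate block and each library left out. Epithelium-restricted genes were high in both groups of epithelial cells alone and at least 100-fold lower in fibroblasts.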

Additional observations from a re-analysis of the deposited data

Results flagged for a closer look

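The change with added fibroblasts differed between the membranes, by the interaction test, for 16 chains. As log2 differences (the change on silk minus the change on LN/PC), the fibrillar chains gave -9.48 for COL1A1, -10.81 for COL1A2, -11.07 for COL3A1, -5.46 for COL5A1, -8.33 for COL5A2, -5.99 for COL5A3 and -1.48 for COL11A1. Type VI chains gave -4.72 for COL6A1, -4.69 for COL6A2 and -10.14 for COL6A3. The other negative values were -1.59 for COL12A1, -8.09 for COL16A1, -7.70 for COL15A1, -5.47 for COL10A1 and -3.11 for COL13A1. COL9A2 alone was positive, at 2.32. The fibroblast markers without VIM summed to 11257 to 25900 in LN/PC co-cultures and 1011 to 1282 in LN/PC monocultures. On silk they summed to 939 to 1288 in co-cultures and 1328 to 1684 in monocultures. Of the negative chains, COL11A1, COL5A1 and COL3A1 were called higher with fibroblasts on silk, and the call of COL3A1 was easily lost, as given above. COL9A2 was at 2.51 or less in every fibroblast library. The part of fibroblast RNA in these interactions was not tested. The fitted sizes for chains at or near 0 depend on the pseudocount. COL5A3, COL10A1 and COL15A1, tested only through their LN/PC co-culture counts, could only be negative.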

How the results depend on the processing

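Of 31, 12, 25, 5, 21, 16 and 11 chains called (fibroblasts against epithelium, the membranes in monoculture and in co-culture, fibroblasts added on silk and on LN/PC, the interaction, and the restricted genes), 2, 6, 5, 3, 5, 0 and 1 were lost when some 1 library was left out; a further 5, 0, 3, 0, 3, 3 and 0 could not be tested in some of these fits because too few libraries then passed the filter. Leaving out each library gave counts of 24 to 32, 8 to 14, 19 to 27, 2 to 7, 15 to 22, 13 to 18 and 10 to 12, in that order. The collagen share ranged over 0.432 to 0.446% in silk monocultures, 0.373 to 0.380% in silk co-cultures, 0.382 to 0.456% and 1.49 to 1.95% in LN/PC mono- and co-cultures and 5.78 to 6.05% in fibroblasts. The median over 17 chains of the level relative to fibroblasts was 17.0% (16.1 to 19.2%), and that of the reference genes 11.7 to 14.3%. With only the compared groups, 6 chains were called between the monocultures. Without mitochondrially encoded genes in the total, the share was 0.461% in silk monocultures and 0.399% in silk co-cultures. On the deposited log2 values in the restricted genes, COL5A2 (-0.49), COL6A1 (-0.33) and COL6A2 (-0.25) reversed. The cause of these shifts was not tested. Of 2181 single-chain values under alternatives, 2023 kept direction and side of the threshold. Rescaling to 72 epithelium-restricted genes moved the all-gene median to 0.11, -0.12, 0.19, 0.38 and -0.21 in the 5 comparisons of the 12-library fit, in the order above.

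Replicate numbers showed no clear pairing of the samples. Over 30 pairs of same-numbered libraries the correlation of deviations ran from -0.23 to 0.18, with 3 over 0.1. For 0 of 15 libraries was the same-numbered library the best match in every other group at once. That count would be near 0 without pairing and rarely higher, so nothing is drawn from it. With the replicate block the counts were 31, 12, 26, 6, 21, 16 and 11, and 2 chains were no longer called, COL16A1 between the monocultures (adjusted p = 0.0524) and COL4A5 with fibroblasts added on silk (adjusted p = 0.0642). Depth limits chains under about 3 reads, which cannot be told from 0.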

Other observations

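Ratios of partner chains, given per kb of transcript, differed between some groups and overlapped between others. COL3A1 stood at 1.22 ± 0.02 (SD, n = 3) times COL1A1 in fibroblasts and at 0.921 ± 0.168 times in LN/PC co-cultures, where replicate 3, at 1.11, was highest and still below the lowest fibroblast value of 1.19. COL6A1 stood at 0.690 ± 0.013 times COL6A2 in fibroblasts and 0.649 ± 0.017 in LN/PC co-cultures, at 0.824 ± 0.029 in silk monocultures and at 0.691 ± 0.151 in LN/PC monocultures, whose range overlapped the other 3. COL4A1 stood at 0.782 ± 0.041 times COL4A2 in silk co-cultures and 0.768 ± 0.097 on LN/PC with fibroblasts, where the range of 0.684 to 0.873 overlapped both kinds of epithelial monoculture.

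LOXL2 was higher in the co-cultures that held less of the fibroblast markers. It averaged 6408 ± 380.3 normalized counts in silk co-cultures, against 3597 ± 209.6 with fibroblasts on LN/PC and 4073 ± 447 in fibroblasts, and was higher in the silk co-cultures by 0.83 ± 0.25 on the log2 scale (limma, adjusted p = 0.0173). P4HA2 was lower there by 1.35 ± 0.19, and LOX, at 4172 ± 492 against 5305 ± 875, did not pass the test (-0.34 ± 0.17, adjusted p = 0.137). No explanation of these values was tested.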
